A study of Mus musculus with 2 samples.

Results

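The genes described here are 10 members of the circadian clock and its output arm, measured in airway epithelium from the fetal lung of mice at the embryonic days written E18.5 and E14.5. They were chosen with earlier results of these data known. Probes were taken by name, where the gene name is a member or an older symbol of it, and that rule used no measured value. All 10 of 10 members were found, on 19 probes of 60 bases, among 17252 genes with a ratio or a bound on the array. The E18.5 sample is airway epithelium inside the lobes of 1 lung, and the E14.5 sample is the same tissue of 1 lung, cut out by laser from frozen sections stained with hemalum. Both lungs came from wild-type male CD-1 fetuses, an outbred stock. The E18.5 RNA carried the red dye Cy5 and the E14.5 RNA the green dye Cy3, and both were hybridised to 1 array after a single round of amplification. The study looked for effectors of FOXJ1, the transcription factor of motile cilia. Each age has 1 sample, so neither a replicate check nor a p-value can be given, and without a dye swap dye and age cannot be told apart. The labels give no hour of collection, so age and time of day cannot be told apart for a family of genes that cycles daily.

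The molecular clock is a feedback loop of transcription. CLOCK or its relative NPAS2 pairs with BMAL1, the product of Arntl, binds E-boxes and switches on the Period (Per) and Cryptochrome (Cry) genes, whose proteins return to the nucleus and inhibit the pair. The same pair drives the PAR bZIP factors DBP, TEF and HLF, leucine zipper proteins that bind D-boxes and pass the rhythm on to output genes. In adult mouse lung the club cells of the airways are known to hold a strong clock, and in mouse tissues rhythmic cycling is known to mature late in development.

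Each of the 10 members was brighter at E18.5, by the probe used for it, which is its brightest. Of all 17252 genes, 9380 had a ratio or bound above 0. By the scanner software, Clock (0.12 ± 0.20) and Cry1 (0.18 ± 0.20) differed from 0 by less than the error-model SD. Of the 10 members, by the probe used, 4 were at least 2-fold higher (Dbp, Tef, Cry2 and Per3), beside 17.3% of all genes. By the same measure 0 were at least 2-fold lower, beside 10.1% of all genes, and 6 lay within 2-fold. The median log2 ratio of E18.5 over E14.5 was 0.55 over the members and 0.06 over all genes. By role, the median was 1.77 over the 3 PAR bZIP factors, 0.80 over the 4 repressors and 0.44 over the 3 activators, and the members of these groups overlapped: the repressors Per2 and Cry1, at 0.40 each, lay below the activators Arntl and Npas2, at 0.44 and 0.48. With the median over probes in place of the brightest probe, 2 members (Dbp and Per3) were at least 2-fold higher, beside 2629 of 17252 genes. Tef, which sets the PAR bZIP median, then came to 0.94. The repressor median leaves out the Period gene Per1, which is not among the 10 members. Per1 was at 0.00, below each of the 4 repressors counted, so the order of the repressors and activators depends on which genes are counted. In the text, a ratio comes from background-corrected and loess-normalized intensities. The error given beside it is the SD that the scanner software's error model attaches to its own log2 ratio of the same spot, which covers the spot and not the animal, the dissection or the amplification. It ran from 0.20 to 0.32 over the 19 probes, each of which was printed once on the array.

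**Figure D1:**
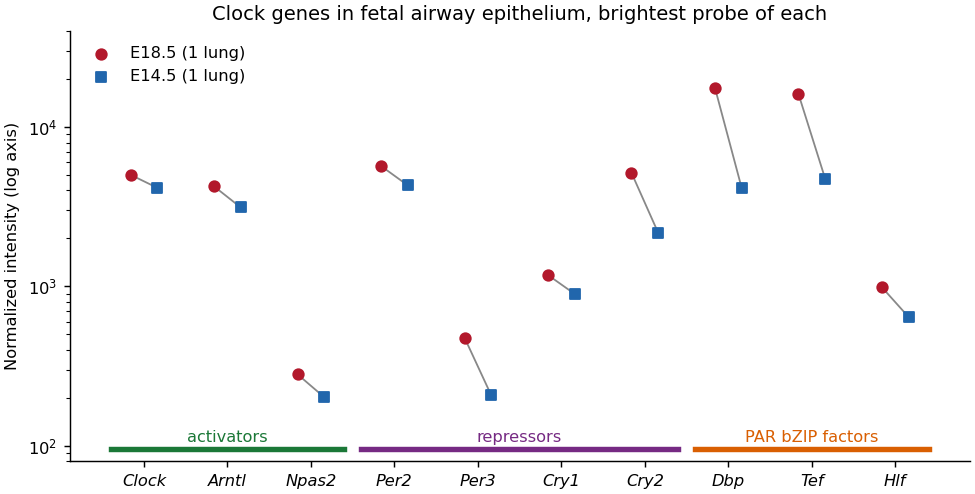
Normalized intensity on a log axis for the brightest probe of each of the 10 genes, with E18.5 as red circles and E14.5 as blue squares (1 lung each). The E18.5 point lies above the E14.5 point for every gene, most for Dbp (17649 and 4148) and least for Clock (5016 and 4157), and levels of different genes are read from different probes and cannot be compared.

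The PAR bZIP factor Dbp, which binds the D site first described in the albumin promoter, had the largest ratio of the 10. Its intensity was 17649 at E18.5, against 4148 at E14.5, a 4.25-fold difference. The log2 ratio was 2.09, and the scanner software's was 1.96 ± 0.27 (error-model SD). It stood at percentile 93.6 of all genes. Dbp was read by 1 probe, on chromosome 7 from 45577937 to 45577996 of the build mm8, plus strand.

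Tef, the thyrotroph embryonic factor, came next and was measured by 4 probes. By the probe used, the intensity was 16165 at E18.5, against 4745 at E14.5, which is 3.41-fold, with a log2 ratio of 1.77 (scanner software 1.64 ± 0.25). The other probes did not give the same ratio. A probe 2.71 kb upstream of it had intensities of 238 at E18.5 and 177 at E14.5, a log2 ratio of 0.42. The next, placed across an intron, had 124 at E18.5 and 97 at E14.5, a log2 ratio of 0.35. The probe farthest upstream, designed on a RIKEN cDNA, had 290 at E18.5 and 106 at E14.5, a log2 ratio of 1.45, and 2.50 ± 0.32 by the scanner software. All 4 probes were higher at E18.5, 2 of them by at least 2-fold, and the median over probes was 0.94, within 2-fold. The cause of the disagreement was not tested. Over their local background, the 3 dimmer probes had net intensities of 85 to 261 at E18.5 and 69 to 143 at E14.5, where negative control spots had 23.8 ± 4.44 and 46.0 ± 3.87 (SD, n = 148 spots).

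Hlf, the hepatic leukemia factor of the same family, lay within 2-fold. Its intensity was 986 at E18.5, against 641 at E14.5, a 1.54-fold difference with a log2 ratio of 0.62 (scanner software 0.45 ± 0.21). The log2 ratio of Dbp exceeded that of Hlf by 1.47, and by the scanner software by 1.51 ± 0.34, with the errors of both spots combined. Tef exceeded Hlf by 1.15 (1.19 ± 0.33). The difference of Dbp from Tef, 0.32 (0.32 ± 0.37), was smaller than the error of the spots. So Dbp differed from Hlf by more than spot error, while the order of Dbp and Tef was not settled. For Tef the difference from Hlf rests on the probe used: 2 of its other probes, at 0.42 and 0.35, lay below Hlf, and its median over probes was 0.94, beside 0.62 for Hlf. The first 30 of 60 bases of probes behind these values are given 5′ to 3′, and the part of each transcript they read was not determined.
Dbp: tgccagggcagagtcctgttccttgctcag
Tef, probe used: aaattttctagaaaaaggcaaagatgattt
Tef, intron-spanning probe: agccaagaaagtctttgtccctgatgaaca
Hlf: aggttgacctcggtgctatgtgtacggctt

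Among the repressors, Cry2, one of both cryptochromes that inhibit the CLOCK and BMAL1 pair, had an intensity of 5161 at E18.5, against 2169 at E14.5. The difference was 2.38-fold, a log2 ratio of 1.25 (scanner software 1.09 ± 0.23). Its second probe, which spans an intron 9.72 kb upstream, had 154 at E18.5 and 151 at E14.5, a log2 ratio of 0.03 (−0.10 ± 0.23). The probes differed by 1.22, and by 1.20 ± 0.32 in the scanner software's ratios, so the call of Cry2 rests on the probe nearer the 3′ end, and the median over both was 0.64.

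Cry1, the other cryptochrome, showed the same split with the call on the other side. By the probe used it had 1177 at E18.5, against 895 at E14.5, a 1.32-fold difference with a log2 ratio of 0.40 (scanner software 0.18 ± 0.20). Its probe nearer the 3′ end, 11.8 kb downstream, had 928 at E18.5 and 424 at E14.5, which is 2.19-fold, a log2 ratio of 1.13 (1.03 ± 0.23). The probes differed by 0.73 (0.85 ± 0.30). By the probes nearer the 3′ end, both cryptochromes were thus past 2-fold, at 1.25 and 1.13, and by the upstream probes neither was, at 0.03 and 0.40. The positions and the first 30 bases of these probes, all on the minus strand of mm8, were as follows. The Cry2 probes lie on chromosome 2 from 92205045 to 92205104 and, across the intron, from 92214765 to 92217030. The Cry1 probes lie on chromosome 10 from 84561785 to 84561844 and from 84573549 to 84573608.
Cry2, 3′ probe, ratio 1.25: catcattctgactagaagcatcctatgatt
Cry2, upstream probe, ratio 0.03: gcctcttctactaccgcctgtgggacttgt
Cry1, 3′ probe, ratio 1.13: ttttcatgtatggtaaaagttaaagttaac
Cry1, upstream probe, ratio 0.40: caaaatatatctacgatccttggaatgcac

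Of the Period genes among the members, Per3 was past 2-fold and Per2 was not, and Per1, outside the members, was at 0.00. Per3 had an intensity of 476 at E18.5, against 207 at E14.5, a 2.30-fold difference with a log2 ratio of 1.20 (scanner software 1.37 ± 0.24). It was a dim gene, read by 1 probe. Per2, a core repressor, had 5697 at E18.5, against 4308 at E14.5, which is 1.32-fold, with a log2 ratio of 0.40 (0.28 ± 0.21). Its second probe, 23.5 kb upstream, had 181 at E18.5 and 195 at E14.5, a log2 ratio of −0.11 (−0.24 ± 0.22), so the sign of Per2 differed between probes. That second probe was dim, with net intensities of 147 at E18.5 and 160 at E14.5, and its sign was not settled. The log2 ratio of Per3 exceeded that of Per2 by 0.80 (1.09 ± 0.32), and that of Cry2 exceeded that of Cry1 by 0.86 (0.91 ± 0.31) by the probes used. Cry2 and Per3 differed by 0.05 (−0.28 ± 0.33), less than the error of the spots. By the probes used, Per3 thus differed from Per2 by more than spot error, which does not cover the disagreement between probes of a gene. The cryptochrome difference depends on the probe. At the 3′ probes Cry2 and Cry1 were at 1.25 and 1.13, and at the upstream probes at 0.03 and 0.40. By the scanner software these were 1.09 ± 0.23 and 1.03 ± 0.23 at the 3′ probes. At the upstream probes they were −0.10 ± 0.23 and 0.18 ± 0.20, so neither order was settled.

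The activators lay within 2-fold throughout. Clock, which also has histone acetyltransferase activity, had an intensity of 5016 at E18.5, against 4157 at E14.5, a 1.21-fold difference with a log2 ratio of 0.27 (scanner software 0.12 ± 0.20). Of its 4 probes, 3 had log2 ratios of 0.27 to 0.35. The fourth, 42 kb upstream of the probe used, had 97 at E18.5 and 122 at E14.5, a log2 ratio of −0.33 (−0.84 ± 0.32), with net intensities of 57 and 93. Arntl, the partner without which the clock stops in mice, had 4244 at E18.5, against 3127 at E14.5, a log2 ratio of 0.44 (0.30 ± 0.21). Npas2, which can stand in for CLOCK, was dim, with 280 at E18.5 and 201 at E14.5, a log2 ratio of 0.48 (0.58 ± 0.22). The activators ran from 0.27 to 0.48, and from 0.12 to 0.58 by the scanner software, with errors of 0.20 to 0.22. Dbp exceeded Clock by 1.82 (1.84 ± 0.34) and Arntl by 1.65 (1.66 ± 0.34), so the largest output factor and the activators differed in ratio by more than spot error.

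**Figure D2:**
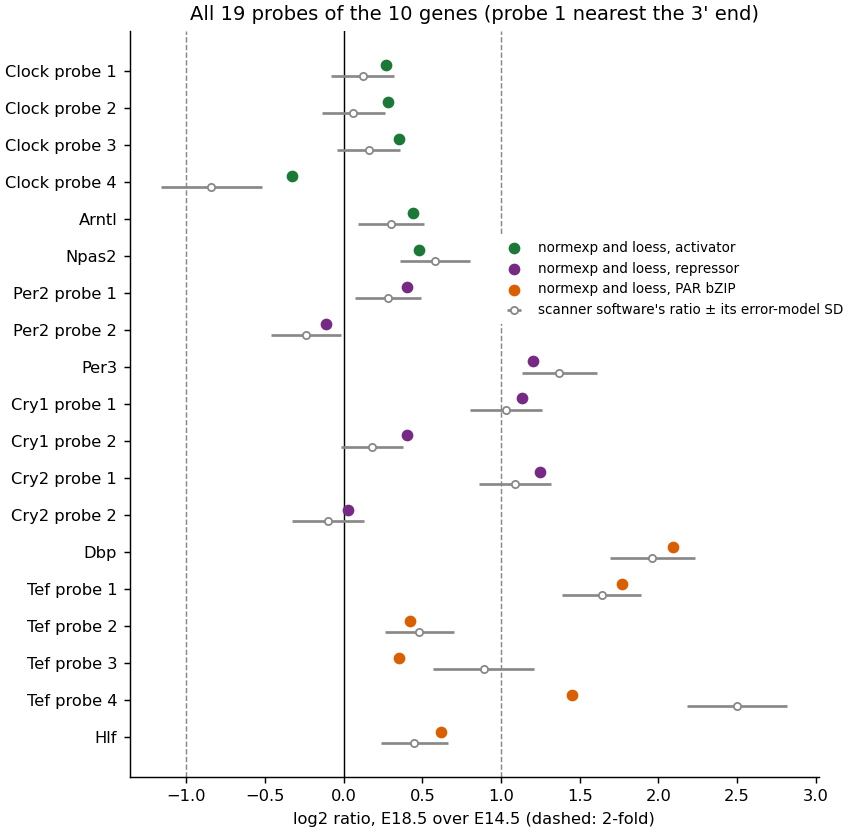
The log2 ratio of E18.5 over E14.5 for all 19 probes, as filled points coloured by role, with the scanner software's own ratio and its error-model SD as open points with bars. Probe 1 is the one nearest the 3′ end of its gene. Of the 19 probes, 17 lie above 0 and 6 reach the dashed 2-fold line, and the fourth probe of Clock and the second of Per2 lie below 0. The share over all probes is not given.

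The 6 probes past 2-fold belong to 5 genes, Dbp, Tef, Cry1, Cry2 and Per3, and 13 probes lay within 2-fold. The share over all probes of the array is not given, so these counts of probes have no background to be read against. In order of the ratio by the probe used, the 10 genes ran Dbp, Tef, Cry2, Per3, Hlf, Npas2, Arntl, Per2, Cry1 and Clock. From Hlf down to Clock the ratios ran from 0.62 to 0.27, and their order was not settled, since by the scanner software Npas2, at 0.58, lay above Hlf, at 0.45. They stood at percentiles 74.1 to 61.8 of all genes, while Per3 and Cry2 stood at percentiles 85.9 and 86.5 and Tef at 91.5.

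**Figure D3:**
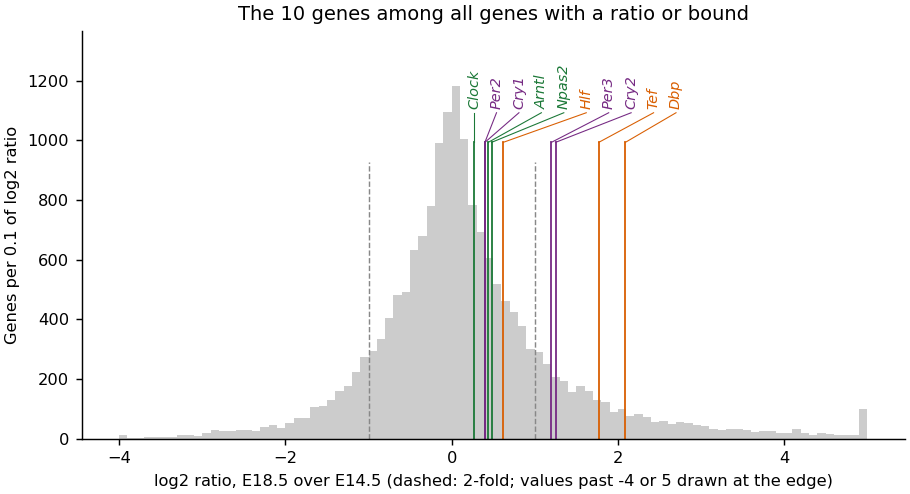
Histogram of the log2 ratio of E18.5 over E14.5 for 17252 genes, with the 10 clock genes as lines coloured by role (green activators, purple repressors, orange PAR bZIP factors). Every line lies above 0, as do 9380 of the 17252 genes, and Dbp, Tef, Cry2 and Per3 lie past the dashed 2-fold line.

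Among the 5 members that have several probes, the probe nearest the 3′ end had a higher log2 ratio than the probe farthest upstream in Clock, Per2, Cry1 and Cry2, also by the scanner software. For Tef the order of these probes turned with the processing: they were at 1.77 and 1.45 here, at 1.77 and 1.94 with a normexp offset of 10, and at 1.64 and 2.50 by the scanner software. The ratios did not follow position step by step in every gene, since Clock was highest at its probe 23.2 kb upstream, at 0.35, and the probes between the ends of Tef were its lowest. Over the whole array, in 57.6% of 5269 genes with probes at least 1 kb apart, the 3′ probe lay farther from 0 than the one farthest upstream, and in 53.6% it had the higher ratio. The SD between probes was 0.87 for Cry2, 0.72 for Tef, 0.52 for Cry1, 0.36 for Per2 and 0.32 for Clock, beside a median of 0.33 over 6898 genes. The RNA was amplified as antisense RNA in a single round, and the part of that step, of transcript ends or of probe quality in these differences was not tested.

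**Figure D4:**
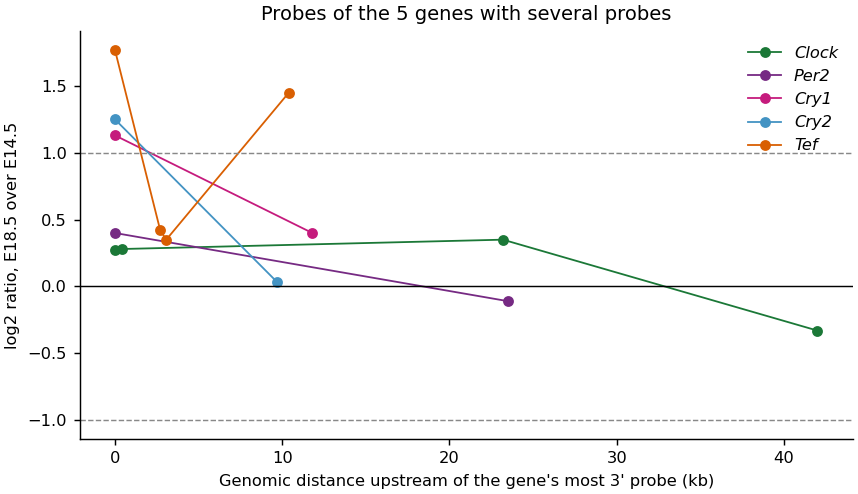
The log2 ratio of E18.5 over E14.5 of each probe against its genomic distance, in kb, upstream of the most 3′ probe of the same gene, for the 5 genes with several probes. Lines join probes of 1 gene. Cry2, Cry1 and Per2 are highest at distance 0, and Tef is high at 0 and at 10.4 kb (1.77 and 1.45) with lower values between.

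The start regions of the members were searched for the elements that clock factors bind, as RefSeq gives them on GRCm38.p6, from 250 bases before to 50 bases after each start. Windows were at hand for 9 members, with 13 starts, and Per2 was not in that table. Letters were matched on both strands. The E-box CACGTG, found in 7.15% of 32851 windows of all genes, was present before both Tef starts (127 and 138 bases) and 60 bases before the Cry1 start. Its variant CACGTT, in 4.68% of windows, was present 166 bases before the Cry2 start and 79 bases before the Cry1 start. A D-box, TTATGTAA or TTACGTAA, in 1.06% of windows, occurred at both 205 and 158 bases before the Per3 start and in no other member. The cAMP response element TGACGTCA, in 1.79% of windows, lay 9 bases before the Hlf start, and a core of the element bound by ROR and REV-ERB proteins, TAGGTCA or TGGGTCA, in 6.45% of windows, lay 31 bases after an Arntl start. None of these letters was found in the windows of Dbp, Clock and Npas2, which says nothing of elements elsewhere in those genes. The 250 bases before the start are shown for the 4 members past 2-fold, with matches in capitals. They are chr4:151044666-151044915 on the minus strand for Per3, chr2:92434070-92434319 on the minus strand for Cry2, and chr15:81802423-81802672 for the first Tef start and chr7:45704997-45705246 for Dbp, both on the plus strand.
Per3: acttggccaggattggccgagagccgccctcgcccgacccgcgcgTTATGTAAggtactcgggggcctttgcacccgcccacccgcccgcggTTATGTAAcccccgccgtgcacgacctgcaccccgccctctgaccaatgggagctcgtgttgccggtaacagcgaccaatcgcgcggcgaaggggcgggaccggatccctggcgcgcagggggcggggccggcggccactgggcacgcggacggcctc
Cry2: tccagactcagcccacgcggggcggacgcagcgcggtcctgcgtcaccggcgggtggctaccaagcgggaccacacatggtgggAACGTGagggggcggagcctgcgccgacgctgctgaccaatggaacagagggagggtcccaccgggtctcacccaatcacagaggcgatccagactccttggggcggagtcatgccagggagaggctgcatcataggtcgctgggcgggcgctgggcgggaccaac
Tef: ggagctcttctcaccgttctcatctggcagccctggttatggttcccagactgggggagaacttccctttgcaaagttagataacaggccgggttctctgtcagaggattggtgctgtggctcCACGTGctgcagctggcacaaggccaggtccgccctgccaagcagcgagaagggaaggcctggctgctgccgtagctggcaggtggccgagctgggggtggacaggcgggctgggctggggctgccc
Dbp: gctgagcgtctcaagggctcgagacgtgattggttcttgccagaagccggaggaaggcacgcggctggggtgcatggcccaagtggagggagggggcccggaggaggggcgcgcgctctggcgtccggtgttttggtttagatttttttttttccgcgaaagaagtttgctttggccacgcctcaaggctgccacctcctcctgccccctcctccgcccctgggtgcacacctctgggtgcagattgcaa
The Per3 sequence holds its D-box letters at separate places, the Cry2 sequence the E-box variant read on the other strand, and the Tef sequence the E-box.

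The rest of the clock was described with a list of 22 other regulators, chosen with earlier results of these data known. Here 3 passed 2-fold on the higher side at E18.5, beside 17.3% of all genes, and 2 on the lower side, beside 10.1%. The other 17 lay within 2-fold, 2 of them by a bound, and the median was 0.18. Bhlhe40, a repressor that competes at E-boxes, had an intensity of 6532 at E18.5, against 1199 at E14.5, a log2 ratio of 2.45 (scanner software 2.37 ± 0.30). Usp2, a deubiquitinase of clock proteins, had 6159 at E18.5, against 1326 at E14.5, a log2 ratio of 2.22 (2.08 ± 0.28), with its other probe at 1.24. Nfil3, the repressor that competes with the PAR bZIP factors at D-boxes, had 11509 at E18.5, against 3675 at E14.5, a log2 ratio of 1.65 (1.52 ± 0.25), with its other probe at 0.78. The activating and the opposing D-box factors were thus both higher at E18.5 by the probes used.

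The lower regulators were Timeless and Nono. Timeless, which in mammals also protects replication forks, had 898 at E18.5, against 5043 at E14.5, 5.62-fold lower with a log2 ratio of −2.49 (−2.72 ± 0.32), and its other probe was at −2.88. In the same samples 6 of 6 cell cycle markers were at least 2-fold lower at E18.5, with a median of −2.41 and a summed intensity of 41949 at E18.5, against 256391 at E14.5, and their part in the Timeless ratio was not tested. Nono, an RNA-binding partner of PER proteins, had 42750 at E18.5, against 104003 at E14.5, a log2 ratio of −1.28, while a second probe gave 0.20. With median centring in place of loess it came to −0.87, so that 3 regulators were higher and 1 lower, and by the scanner software 3 were higher and 3 lower, with Rorb added at −1.05. The regulators nearest 0 were Per1 (0.00, 4233 at E18.5 and 4222 at E14.5), Btrc, a ubiquitin ligase subunit that marks PER proteins (−0.01), Bhlhe41 (0.01, near the floor at 95 and 94) and Fbxw11, a relative of Btrc (0.03, with another probe at −1.74). Nr1d1, Nr1d2 and Rora are named after their values were seen, since they act directly on Arntl: the REV-ERB genes Nr1d1 and Nr1d2 were at 0.22 and 0.80, and the activator Rora at 0.59. Nr1d1 had another probe at 1.55 (2.07 ± 0.28), with 426 at E18.5 and 145 at E14.5.

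Output genes of the clock were described with a list of 10, also chosen with earlier results of these data known. Of these, 5 passed 2-fold on the higher side at E18.5, beside 17.3% of all genes, and 1 on the lower side, beside 10.1%. The other 4 lay within 2-fold, 1 of them by a bound, and the median was 0.93. Por, the reductase that feeds electrons to cytochromes P450 and a target of PAR bZIP factors in mouse liver, had 127761 at E18.5, against 6491 at E14.5, which is 19.7-fold, a log2 ratio of 4.30 (4.26 ± 0.45). Alas1, the first enzyme of heme synthesis and another such target, had 90523 at E18.5, against 8517 at E14.5, a log2 ratio of 3.41 (3.36 ± 0.37), with its other probe at 3.03. Both genes also serve the P450 system of club cells. Club cell markers passed 2-fold on the higher side in 4 of 4 cases, with a summed intensity of 1087375 at E18.5 and 32361 at E14.5, and their part in these ratios was not tested.

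The nuclear receptor Ppara was at 2.93, with 2110 at E18.5 and 277 at E14.5. Pdxk, the kinase of vitamin B6 and a PAR bZIP target in mouse brain, was at 2.92 by its brightest probe, and further probes gave 1.91 and 0.02. Cdkn1a, which encodes the cell cycle inhibitor p21, was at 1.80, with 13038 at E18.5 and 3744 at E14.5. Wee1, a kinase that delays mitosis and an E-box target in mouse liver, was the lower gene, with 188 at E18.5 against 429 at E14.5, a log2 ratio of −1.19 (−1.80 ± 0.27). Nampt (0.05), Noct (0.07), Avp (−0.14) and Nr1i3 (−0.18, well above background at E14.5 only) lay nearest 0. The output genes thus lay on both sides of 0.

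**Figure D5:**
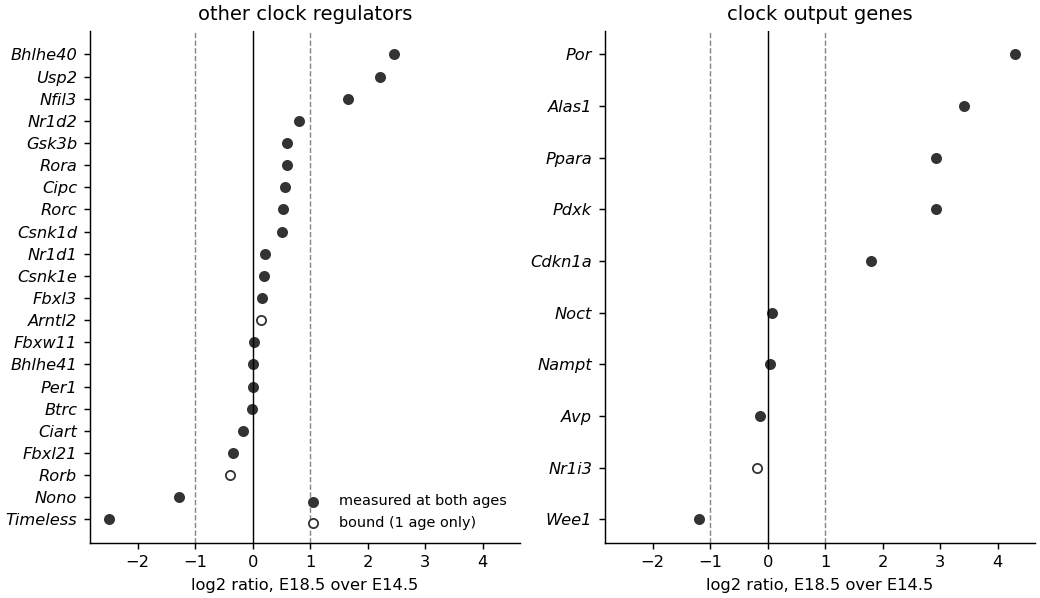
The log2 ratio of E18.5 over E14.5 for 22 other clock regulators (left) and 10 clock output genes (right), 1 point per gene by its brightest probe, with open points for bounds. Bhlhe40, Usp2 and Nfil3 lie past the dashed 2-fold line on the higher side and Timeless and Nono on the lower, and among outputs Por has the highest value (4.30) and Wee1 the lowest (−1.19).

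The cells in the samples differed between ages, and in dissected tissue fewer cells of a type and less RNA per cell cannot be told apart. All 6 epithelial markers were measured at both ages, with a median log2 ratio of 0.09, 2 at least 2-fold higher and 1 lower. Their summed intensity was 351070 at E18.5 and 213539 at E14.5. Markers of multiciliated cells (6 of 6 at least 2-fold higher, summed intensity 78931 at E18.5 and 8514 at E14.5) and of alveolar type II cells (5 of 5, 258223 and 41916) were higher, as were 4 of 6 leukocyte markers (10494 and 2891) and 3 of 6 endothelial markers (101147 and 16977). Of 6 smooth muscle markers, 5 were at least 2-fold lower (147345 at E18.5 and 372639 at E14.5). Of 6 mesenchymal markers 0 passed 2-fold, with a summed intensity of 327790 at E18.5 and 227143 at E14.5. Mesenchymal markers were thus bright at both ages in tissue cut out as epithelium. The part of these cell types in the ratios of Dbp, Tef, Cry2 and Per3 was not tested.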

How the data were processed

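Values were read from 1 two-colour array of 45018 spots, deposited as a scanner table for each of the 2 samples; these agreed in 115 of 115 columns. Green (Cy3) was read as E14.5 and red (Cy5) as E18.5, per the labels. The linear mean and local background intensities, the processed intensities, the log10 ratios with their error-model SD, and the 0 or 1 flags are deposited output of the scanner software, which the submitters' processing notes name as Agilent Feature Extraction 9.5.3.1. The background-subtracted log10 ratio was dye-normalized by that software, per the file headers. The authors' value table holds linear intensities, which on comparison equalled 0.339 times the processed signal of that sample's dye, with a floor of 15.

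Mean intensities were corrected with normexp (offset 50, which pulls dim ratios towards 0) and loess-normalized with limma 3.58.1 (R 4.3.3), at a span of 0.3 and 4 iterations. Loess centres the ratios, so a shift common to most genes is not seen. Control and outlier spots (1639 and 160) were left out. The procedure was tested on simulated data, in which a small set of brighter spots was changed equally in both directions. That test does not cover dim probes, or an array on which many genes differ and more are higher than lower. Tables and plots used Python 3.11.15, numpy 2.4.6, pandas 2.3.3 and matplotlib 3.10.9. RefSeq names (GRCm38.p6) fitted 33113 of 41170 probes. The brightest probe well above background at 1 age or both stands for a gene; where only 1 age was measured, its ratio is a bound. The share well above background was 78.7% at E18.5 and 75.2% at E14.5, and 1 array limits the precision. Probe positions are on mm8, and no annotation of that build was used, so exon or UTR is not given.

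Calls were by size, 2-fold or more. The members and both gene lists were chosen with earlier results of these data known. Named are all members and, of each list, the genes past 2-fold and the 4 nearest 0. With 2 samples on 1 array, likeness of pattern to other genes was not computed.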

Additional observations from a re-analysis of the deposited data

How the results depend on the processing

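The alternatives were the scanner software's ratio, a normexp offset of 10, median centring, the authors' value table, the median over probes, both filters on dim probes, matching by accession and a 1.5-fold threshold. Both filters on dim probes and matching by accession left the member ratios as they were, the value table holds the scanner software's own signal, and the median over probes can move only the 5 genes with several probes. Over the alternatives the ratio ran from 1.96 to 2.17 for Dbp, 0.94 to 1.85 for Tef, 0.64 to 1.27 for Cry2, 1.20 to 1.38 for Per3 and 0.18 to 0.76 for Cry1. With the median over probes, 2 members (Dbp and Per3) in place of 4 were at least 2-fold higher, beside 2629 of 17252 genes. By that setting 1 regulator in place of 2 was at least 2-fold lower, as was 1 with median centring. With the median over probes, Cry2 came to 0.64, Tef to 0.94 and Nono to −0.54, since their probes disagree. Nono came to −0.87 with median centring, and the cause was not tested. By the scanner software 2693 genes in place of 1739 were at least 2-fold lower; its median over all genes was −0.05, against 0.06 in the report, and the members' medians were 0.52 and 0.55. The cause was not tested. No paired analysis was possible because each age has 1 sample. No setting repairs the lack of replicates, of a dye swap or of a known hour of collection. Dim probes are limited by signal over background, as in Npas2, Per3, the upstream probes of Tef, Cry2 and Per2, and the fourth probe of Clock.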

Other observations

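Several clock regulators outside the 10 members gave different ratios from different probes. Fbxw11, a subunit of a ubiquitin ligase that marks PER proteins, was at 0.03 by its bright probe (24984 at E18.5 and 24484 at E14.5) and at −1.74 by a dimmer one (331 at E18.5 and 1110 at E14.5). Nr1d1, which encodes REV-ERB alpha, had probes at 0.22, 1.55 and 0.12. Usp2 was past 2-fold by both probes, at 2.22 and 1.24, and Timeless by both, at −2.49 and −2.88.

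Erythroid markers had a summed intensity of 523450 at E18.5 and 93772 at E14.5, with 3 of 6 at least 2-fold higher and 1 of 6 at least 2-fold lower. Alas1, the heme synthesis enzyme named among the clock outputs, is the form made in all tissues. The part of erythroid cells in its ratio was not tested.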
